A study of Mus musculus with 6 samples.

Results

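The regions described here are promoter windows of 489 mouse genes that carried the active histone mark H3K27ac at an internal or otherwise alternative transcription start site (TSS), while the TSS of the transcript with the longest genomic span carried none. The members were chosen by peak overlap. A protein-coding or lincRNA gene on an autosome was a member if no control H3K27ac peak reached within 1 kb of the TSS of its longest-span transcript and a peak reached within 1 kb of the TSS of at least 1 other protein-coding or lincRNA transcript of the gene. Of 25930 such genes, 11263 (43.4%) were marked at the longest-span TSS, 489 (1.89%) were marked only at another TSS and 14178 were marked at none. The presence and absence of the mark at these starts therefore define the members and are not findings.

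H3K27ac was profiled by chromatin immunoprecipitation and sequencing (ChIP-seq) in mouse embryonic stem cells (mESCs) of the line E14Tg2A Rosa26-Cre Oct4-IRES-Puro, grown in N2B27 medium with LIF and the inhibitors PD0325901 and CT-99021. The series holds 6 samples, 2 each of cells treated with DMSO (control), with 100 nM of the CDK9 inhibitor NVP-2 or with actinomycin D (ActD), labelled 800 nM, for 120 min. HEK293 chromatin, from a human cell line, served as a spike-in in every sample. The file used here is a single list of 22973 control peaks, 22518 of them on autosomes, that pools both control replicates and gives positions without heights. No comparison between treatments or replicates could be made from it, and every value below describes the control cells, without a test. Intervals are 95% intervals over genes (Wilson for shares, order statistics for medians) and cover counting error only, and the list gives no read counts for its peaks. At their longest-span TSS, 39 of 49 regulators of pluripotency were marked (79.6%), among them Pou5f1, Nanog, Sox2 and Zfp42, which define this cell type.

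Many mammalian genes start from more than one promoter. Alternative promoters can change the first exon alone, leaving the protein as it is, or move the start codon, so that the protein gains or loses its N-terminal end. In many genes, one of these promoters lies in a CpG island and is used in most tissues, while another is poor in CpG and used in few. H3K27ac is laid down by the acetyltransferases p300 and CBP at active promoters and enhancers.

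The following 8 pairs of sequences show the contrast between the marked and the unmarked start within a gene. Each stretch holds the 120 bases just before a TSS on the strand of the gene, from the RefSeq copy of the genome (GRCm38, the build also called mm10), and CpG dinucleotides are in capitals. None overlaps an annotated exon.
Dnmt1 marked start (Dnmt1-201, chr9:20952980-20953099, - strand): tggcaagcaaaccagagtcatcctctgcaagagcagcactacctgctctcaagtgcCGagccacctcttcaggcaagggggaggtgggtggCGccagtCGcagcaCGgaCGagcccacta
Dnmt1 unmarked start (Dnmt1-202, chr9:20959889-20960008, - strand): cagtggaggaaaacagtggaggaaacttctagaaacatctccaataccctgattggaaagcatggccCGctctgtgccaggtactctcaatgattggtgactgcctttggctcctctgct
Esrrb marked start (Esrrb-202, chr12:86421524-86421643, + strand): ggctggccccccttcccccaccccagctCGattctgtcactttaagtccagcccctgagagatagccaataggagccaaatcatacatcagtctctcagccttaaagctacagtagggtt
Esrrb unmarked start (Esrrb-204, chr12:86360997-86361116, + strand): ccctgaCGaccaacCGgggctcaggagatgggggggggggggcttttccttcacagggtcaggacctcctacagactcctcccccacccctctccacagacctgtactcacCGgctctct
Hif1a marked start (Hif1a-201, chr12:73907784-73907903, + strand): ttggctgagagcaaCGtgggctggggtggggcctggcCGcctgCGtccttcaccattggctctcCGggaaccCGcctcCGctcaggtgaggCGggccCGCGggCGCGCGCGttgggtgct
Hif1a unmarked start (Hif1a-202, chr12:73901255-73901374, + strand): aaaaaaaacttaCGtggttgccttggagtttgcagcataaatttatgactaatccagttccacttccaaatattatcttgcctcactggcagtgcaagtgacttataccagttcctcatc
Hdac7 marked start (Hdac7-202, chr15:97831768-97831887, - strand): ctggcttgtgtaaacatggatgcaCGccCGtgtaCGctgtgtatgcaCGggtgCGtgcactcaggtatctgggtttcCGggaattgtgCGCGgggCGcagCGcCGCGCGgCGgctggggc
Hdac7 unmarked start (Hdac7-203, chr15:97844503-97844622, - strand): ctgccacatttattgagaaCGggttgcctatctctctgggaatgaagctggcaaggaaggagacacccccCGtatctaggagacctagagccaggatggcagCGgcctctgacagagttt
Runx1 marked start (Runx1-202, chr16:92697329-92697448, - strand): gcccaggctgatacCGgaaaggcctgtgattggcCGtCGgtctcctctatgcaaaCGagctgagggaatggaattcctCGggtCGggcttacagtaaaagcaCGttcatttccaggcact
Runx1 unmarked start (Runx1-201, chr16:92826150-92826269, - strand): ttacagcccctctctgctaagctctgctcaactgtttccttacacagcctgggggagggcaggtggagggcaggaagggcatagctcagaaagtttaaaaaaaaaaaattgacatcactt
Mest marked start (Mest-211, chr6:30737930-30738049, + strand): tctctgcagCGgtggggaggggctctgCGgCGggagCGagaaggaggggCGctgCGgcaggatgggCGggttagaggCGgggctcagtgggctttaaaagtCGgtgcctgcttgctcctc
Mest unmarked start (Mest-201, chr6:30723427-30723546, + strand): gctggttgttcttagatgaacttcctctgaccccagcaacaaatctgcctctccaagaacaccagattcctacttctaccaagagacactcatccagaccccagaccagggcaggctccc
Kdm4c marked start (Kdm4c-201, chr4:74251816-74251935, + strand): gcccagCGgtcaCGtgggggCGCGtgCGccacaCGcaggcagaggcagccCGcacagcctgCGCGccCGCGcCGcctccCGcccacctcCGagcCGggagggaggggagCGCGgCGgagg
Kdm4c unmarked start (Kdm4c-202, chr4:74242377-74242496, + strand): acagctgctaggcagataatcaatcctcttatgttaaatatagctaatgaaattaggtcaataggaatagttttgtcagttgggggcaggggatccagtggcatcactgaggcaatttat
Arid1a marked start (Arid1a-204, chr4:133723880-133723999, - strand): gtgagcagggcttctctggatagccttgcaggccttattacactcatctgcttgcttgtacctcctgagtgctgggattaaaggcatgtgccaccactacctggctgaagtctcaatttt
Arid1a unmarked start (Arid1a-201, chr4:133756770-133756889, - strand): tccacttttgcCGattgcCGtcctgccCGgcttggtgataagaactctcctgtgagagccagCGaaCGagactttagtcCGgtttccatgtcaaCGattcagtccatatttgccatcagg

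The number of CpG dinucleotides in these stretches was 18 before the marked start of Kdm4c, a histone lysine demethylase, and 0 before its unmarked start. Hdac7, a class IIa histone deacetylase, had 14 and 3, and the oxygen-regulated transcription factor Hif1a had 13 and 1. Mest, an imprinted gene, had 9 and 0, Runx1, a regulator of blood formation, had 7 and 0, and the maintenance DNA methyltransferase Dnmt1 had 5 and 1. The order was the opposite in Esrrb, a nuclear receptor of the pluripotency network, with 1 before the marked and 3 before the unmarked start. It was also the opposite in Arid1a, a subunit of the BAF remodelling complex, with 0 and 7.

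The marked start lay more than 2 kb from the unmarked one in most members. The nearest marked TSS was a median of 12171 bp (95% interval 9943 to 14622, n = 489) from the longest-span TSS, with quartiles at 4175 and 35234 bp. The median was 3591 bp (2882 to 4459) over the 777 genes that were members when the TSS itself had to lie inside a peak. It lay more than 10 kb and up to 50 kb away in 170 members, between 50 and 100 kb away in 48 and farther than 100 kb in 47. It was within 1 kb in 13 members. The marked start was downstream in 431 members (88.1%, 95% interval 85.0 to 90.7) and upstream in 58. A transcript of the longest span tends to start farthest upstream, so this direction is largely given by the rule. Among genes with several TSS that were unmarked throughout, the nearest other TSS was downstream in 84.1% of 6217, and among those marked at the longest-span TSS in 84.1% of 7457. On this measure, which takes the nearest other TSS whether marked or not, it was downstream in 404 members (82.6%, 95% interval 79.0 to 85.7). When the isoform with the longest spliced length stood for the gene, the marked start was downstream in 48.2% of 502 members.

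**Figure D1:**
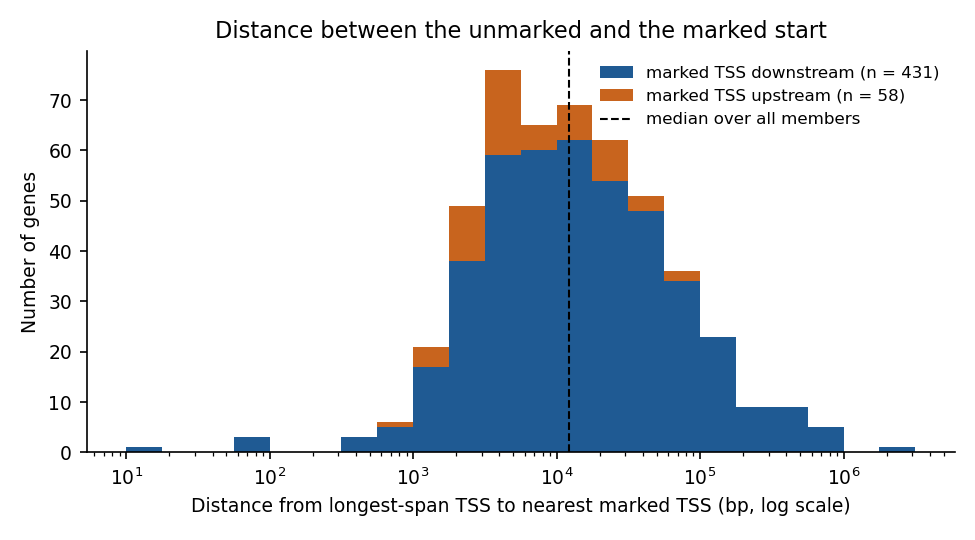
Histogram of the distance in bp (log scale) from the unmarked longest-span TSS to the nearest marked TSS for the 489 members, with genes whose marked start lay downstream in blue (431) and upstream in orange (58). The dashed line is the median of 12171 bp, and most members fall between 1 kb and 100 kb.

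The 10 largest distances were all downstream. Cntnap2, which codes for a neuronal adhesion protein, was marked 1984999 bp downstream of its longest-span TSS, 55 bp from a peak of 355 bp, within intron 17. Kcnip4, which codes for a potassium channel interacting protein, was marked 925225 bp downstream. Zfhx3 was marked 760456 bp downstream, Dab1, an adaptor in reelin signalling, 747448 bp and the phosphodiesterase gene Pde4d 606477 bp. Etl4, Celf2, Dpp6, Mast4 and Schip1 completed the 10 largest, between 403381 and 600267 bp. The 10 smallest distances ran from 13 bp in Sult5a1 to 839 bp in Aspdh. Among them, Akap7 (57 bp), Nr5a2 (68 bp) and Ltc4s (84 bp) had marked and unmarked starts that lie on either side of the limit of 1 kb from the same peak.

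The limit of 1 kb separated genes with very close values. On its outer side, the longest-span TSS of Sult5a1 lay 1005 bp from the nearest peak, those of Akap7 and Fth1 1027 bp, that of Tmem214 1029 bp and that of Nr5a2 1033 bp. The next 5, Ltc4s, Mb, Pdgfb, 2610037D02Rik and Sh3gl3, lay between 1064 and 1136 bp away. On its inner side, counted as marked at the longest-span TSS, were Gm10482 at 999 bp, AC124316.1 at 996 bp, Cxcr5 and Gm13656 at 985 bp and Kcnh8 at 984 bp, followed by Vpreb2, Msra, Ptpn7, Gm12847 and E330017A01Rik between 973 and 982 bp. Over all members, the longest-span TSS was a median of 7102 bp from the nearest peak (95% interval 5654 to 8437), and in 86 of 489 it was within 2 kb. For 329 members (67.3%, 95% interval 63.0 to 71.3) this nearest peak was the one over a marked TSS of the same gene. In the remaining members, another peak lay closer to the unmarked start.

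The marked start usually lay inside the longest-span transcript. That transcript was chosen for its span, so this location is largely given by the rule. The nearest marked TSS lay in an intron of that transcript in 360 of 489 members (73.6%, 95% interval 69.5 to 77.3), in an exon in 70 and outside the transcript in 59. The first intron alone held it in 203 members (41.5%, 95% interval 37.2 to 45.9), the second intron in 88 and later introns in 69. The TSS itself was inside the peak in 386 members (78.9%). The marked starts of 435 members formed 1 group, with no gap over 2 kb between neighbouring marked starts, and those of 54 formed 2 or more. Beside the longest-span TSS, 271 members had at least 1 further unmarked TSS. Members had a median of 4 different TSS, against 3 in genes with several TSS that were marked at the longest-span TSS and 2 in those unmarked throughout. Their longest transcript spanned a median of 40628 bp (95% interval 34773 to 47401), against 25217 bp (24439 to 26199) and 15235 bp (14510 to 15839) in those groups. A gene with more annotated starts has more chances to meet the rule.

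Only genes with several TSS and an unmarked longest-span TSS could be members. There were 6706 of these, of which 489 (7.29%, 95% interval 6.69 to 7.94) were members. The share was 7.87% (7.21 to 8.59) of 5856 protein-coding genes and 3.29% (2.29 to 4.72) of 850 lincRNA genes. By chromosome it ran from 3.50% of 343 genes on chromosome 14 to 11.9% of 235 on chromosome 15. Among 6837 genes that had another TSS more than 2 kb from the longest-span one, 982 were marked at both, 2343 at the longest-span TSS alone, 460 at another TSS alone and 3052 at neither. Of the 489 members, 461 were protein-coding and 28 were lincRNA genes.

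The marked window was richer in CpG than the unmarked window of the same gene in most members. The ratio of observed to expected CpG within 1 kb of the TSS had a median of 0.528 (95% interval 0.490 to 0.561) at the nearest marked TSS and 0.243 (0.233 to 0.256) at the longest-span TSS. The difference within a gene, marked minus unmarked, had a median of 0.251 (0.187 to 0.285) and was above 0 in 395 of 489 members (80.8%, 95% interval 77.1 to 84.0). When the TSS itself had to lie inside a peak, which made 777 genes members, the median difference was 0.0446 (0.0259 to 0.0703). For comparison, the longest-span window had a median ratio of 0.642 in the 7457 genes with several TSS that were marked there and of 0.230 in the 6217 that were unmarked throughout. The unmarked windows of members thus had values near those of genes with no mark, and their marked windows lay between both groups. GC content showed the same order, with medians of 53.4% at the marked and 48.1% at the unmarked start, and was higher at the marked start in 362 members. Marked windows are compared here within genes chosen for their marks, and no test was made.

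**Figure D2:**
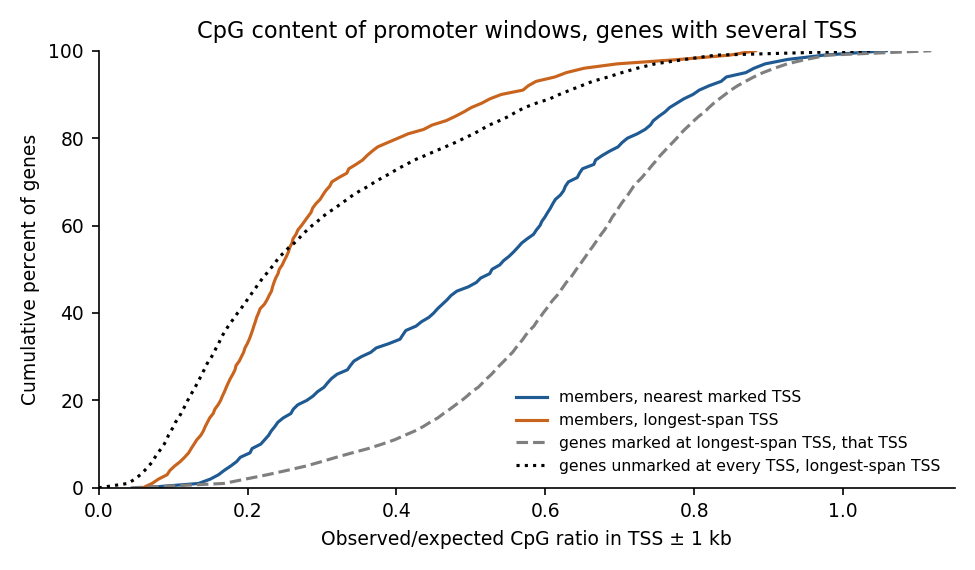
Cumulative percent of genes (y axis) by the observed to expected CpG ratio within 1 kb of a TSS (x axis) for the nearest marked TSS (blue) and longest-span TSS (orange) of the 489 members, and for the longest-span TSS of other genes with several TSS that were marked there (grey, dashed, 7457 genes) or unmarked throughout (black, dotted, 6217 genes). The median of the blue line is 0.528 and that of the orange line 0.243.

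Windows were also sorted into 3 classes. High-CpG windows held a stretch of 500 bp with a CpG ratio over 0.75 and a GC content over 55%, low-CpG windows held no such stretch with a ratio of 0.48 or more, and the others were intermediate. The marked window was high-CpG in 275 members (56.2%, 95% interval 51.8 to 60.6), intermediate in 112 and low-CpG in 102. The unmarked longest-span window was high-CpG in 70 (14.3%, 11.5 to 17.7), intermediate in 126 and low-CpG in 293. A low-CpG unmarked start together with a high-CpG marked start was found in 165 members, and 66 members were low-CpG at both. The shares of the unmarked longest-span windows of genes unmarked throughout were 20.3% high-CpG and 56.9% low-CpG. In genes marked at the longest-span TSS, 80.6% of these windows were high-CpG.

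The difference in CpG ratio was smallest for the most distant pairs of starts. Starts up to 2 kb apart have overlapping windows, which draws both ratios together, so that class is hard to compare with the others. The median difference in its 45 members was 0.224 (95% interval 0.0854 to 0.316). It was 0.309 (95% interval 0.252 to 0.372) in the 99 members with starts more than 2 kb and up to 5 kb apart, 0.295 (0.168 to 0.390) in the 80 up to 10 kb apart, 0.258 (0.160 to 0.320) in the 170 up to 50 kb apart and 0.0871 (0.00408 to 0.178) in the 95 farther apart. The ratio was higher at the marked start in 93 of 99, 66 of 80 and 137 of 170 members of the classes from 2 kb up to 50 kb. It was higher in 31 of 48 members with starts 50 to 100 kb apart and in 27 of 47 farther apart, and in 10 of 13 up to 1 kb and 31 of 32 from 1 to 2 kb. In the 58 members marked upstream, the median difference was 0.368 (0.321 to 0.433), against 0.200 (0.148 to 0.259) in the 431 marked downstream. All 58 upstream differences were positive, the smallest being 0.0200.

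The gain in CpG ratio was largest in 10 members. Evi5, Cdk2ap1, Ubn2, Rsbn1l, Slc39a10, Angel2, Ppp2r3d, Cdyl, Carf and the lincRNA gene D730045B01Rik went from ratios of 0.276 or less at the unmarked start to 0.820 or more at the marked start. The highest marked value was 1.06 in Cdk2ap1, a cell cycle regulator, against 0.172 at its unmarked start 8411 bp away. Slc39a10, a zinc importer, had 0.888 and 0.104. In the members with the largest losses, the unmarked start was the CpG-rich one. Tanc2, a scaffold of synapses, had 0.870 at its unmarked and 0.136 at its marked start, and Mast4, Slc4a8, Zfp536, Dnmbp, Nod1, Ankrd6, Zbtb7c and Kdm2a had unmarked ratios of 0.571 or more and marked ratios of 0.498 or less. In the 70 members with a high-CpG unmarked start, the marked start was a median of 48639 bp away (95% interval 21446 to 67435), and it was farther than 10 kb in 54 of them.

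Short motifs of core promoters were counted from 250 bp before to 50 bp after each start, on both strands. The GC box GGGCGG, bound by Sp1 and its relatives, was in 249 of 489 marked starts (50.9%, 95% interval 46.5 to 55.3), in 101 unmarked starts of members (20.7%, 17.3 to 24.5) and in 38.9% of the longest-span promoters of all 25930 genes. The ETS motif CCGGAAG was in 11.0% (8.56 to 14.1) of the marked, 3.07% (1.87 to 5.00) of the unmarked and 9.98% of all longest-span promoters. For GCGCATGC, the core of the NRF1 site, these shares were 4.29%, 1.02% and 2.97%. The E-box CACGTG was in 7.16%, 3.89% and 7.41%. The CCAAT box was in 33.3% (29.3 to 37.6) of marked and 32.7% (28.7 to 37.0) of unmarked starts, with overlapping intervals, against 38.2% of all. The TATA box TATAAA was in 7.57% (5.54 to 10.3) of marked and 11.0% (8.56 to 14.1) of unmarked starts, against 13.3% of all. The octamer ATGCAAAT, bound by Oct4 and other POU factors, was in 7 marked (1.43%) and 3 unmarked starts, against 1.72% of all, and TCAAGGTCA, a site of Esrrb, was in 3 (0.613%) and 6, against 0.532%. The cAMP response element TGACGTCA was in 9 (1.84%) and 4, against 2.14%. For these 3 motifs, the interval of the marked share held the share of all promoters. The same was true of the ETS motif, the NRF1 motif (interval 2.83 to 6.48) and the E-box (5.19 to 9.79). The GC box, the ETS and NRF1 motifs, the E-box and the cAMP response element contain a CpG, so their shares move with the CpG content above. In the 7457 genes with several TSS that were marked at the longest-span TSS, that promoter held the GC box in 65.8%, the ETS motif in 19.5%, the E-box in 10.5%, the NRF1 motif in 5.74% and the TATA box in 5.77%. A match is a run of letters in the window and not a bound site.

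The measures of annotation support differed in direction. A curated RefSeq transcript started within 100 bp of the nearest marked TSS in 306 members (62.6%, 95% interval 58.2 to 66.8) and of the longest-span TSS in 267 (54.6%, 50.2 to 59.0). RefSeq had such a start at both in 163 members, only at the marked one in 143, only at the longest-span one in 104 and at neither in 79. For comparison, a curated RefSeq start was near the longest-span TSS in 82.8% of 7457 genes marked there and in 3728 of 6217 unmarked throughout. The highest transcript support level, 1, was given to 285 of the nearest marked and 244 of the longest-span transcripts. The GENCODE basic tag was instead more frequent on the longest-span transcript, in 406 members (83.0%, 79.4 to 86.1), than on the nearest marked one, in 356 (72.8%, 68.7 to 76.6). Transcripts tagged as incomplete at the 5′ end, whose annotated start need not be a true one, made up 29 of the nearest marked (5.93%, 4.16 to 8.39) and 25 of the longest-span transcripts of members (5.11%, 3.49 to 7.44). Over all 25930 genes, they made up 0.779% of the longest-span and 11.5% of the other transcripts. In the 163 members with curated starts on both sides, the marked start was a median of 11902 bp away (8003 to 15390), and the CpG ratio was higher at it in 122 (74.8%, 67.7 to 80.9), with a median difference of 0.171 (0.0930 to 0.285).

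About as many coding members kept as changed their start codon. In 203 of 410 coding members with start codons annotated on both sides (49.5%, 95% interval 44.7 to 54.3), no marked transcript used the start codon of the longest-span transcript. The nearest marked transcript coded for fewer residues than the longest-span transcript in 231 of 461 coding members, for the same number in 83 and for more in 147. The median coding length was 328 residues (285 to 370) for the marked and 429 (367 to 473) for the longest-span transcripts. These lengths include transcripts with incomplete coding sequences. A transcript that the annotation ranks as a principal isoform (APPRIS) started at a marked TSS in 294 of 461 coding members (63.8%, 59.3 to 68.0), and the longest-span transcript was principal in 227 (49.2%, 44.7 to 53.8). Principal isoforms started only at marked TSS in 191, only at the longest-span TSS in 124 and at both in 103. In 7220 coding genes with several TSS that were marked at the longest-span TSS, that transcript was principal in 79.3%.

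Enzymes and remodellers of chromatin held 9 members. Of 114 genes on this list, 99 were marked at the longest-span TSS (86.8%), 14 had several TSS and an unmarked longest-span TSS, and 9 of these 14 were members (64.3%, 95% interval 38.8 to 83.7), against the background of 7.29% of all such genes. The lists were put together with earlier results of these data known, so these shares are descriptions. Dnmt1, which is known for separate starts in oocytes and somatic cells, was unmarked at Dnmt1-202 and marked at 3 starts from 6909 to 7283 bp downstream, all in a peak of 10425 bp (chr9:20943322-20953746). The longest-span transcript coded for 1501 residues and the nearest marked one, Dnmt1-201, for 1620. Dnmt3l, a cofactor of de novo DNA methylation, was marked 7555 bp downstream in intron 2, with 421 residues from either start and CpG ratios of 0.217 at the unmarked and 0.307 at the marked start.

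Among the demethylases and deacetylases, Kdm4c was marked 9439 bp downstream of its longest-span TSS, in a peak of 4298 bp, and again 20312 bp downstream in a second peak of 7574 bp. The CpG ratio was 0.152 at the unmarked start, 0.749 at the first marked start and 0.0854 at the second. Kdm4c coded for 1054 residues from both the unmarked and the first marked start. Hdac7 was marked 12735 bp downstream in intron 1 (CpG ratio 0.261 unmarked, 0.646 marked). Kdm2a, an H3K36 demethylase that binds CpG islands, was unmarked at a high-CpG start (0.827) and marked 64284 bp downstream in intron 12 (0.291), at a transcript of 292 residues against 1161. Sirt1, an NAD-dependent deacetylase, was marked 42669 bp downstream of a longest-span start that has support level 5, with ratios of 0.406 and 1.00. Its marked transcript starts at a curated RefSeq start and lies in exon 6 of the longest-span model, whose own start has no curated RefSeq start within 42 kb.

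The remaining 3 are subunits of remodelling and Polycomb complexes. Arid1a had no peak at its longest-span start or at Arid1a-202, a high-CpG start 3158 bp downstream (ratio 0.856) that was 15137 bp from the nearest peak. It was marked at Arid1a-204, 32890 bp downstream in intron 1, in a wide peak of 11713 bp and a low-CpG window (0.200). That transcript coded for 140 residues and had no curated RefSeq start within 30 kb. Smarcd3 was marked 22399 bp downstream (0.335 unmarked, 0.629 marked). Pcgf5, a subunit of a variant of Polycomb repressive complex 1, was high-CpG at both its unmarked (0.816) and its marked start (0.907), 61439 bp apart, the latter 88 bp from a peak of 423 bp.

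**Figure D3:**
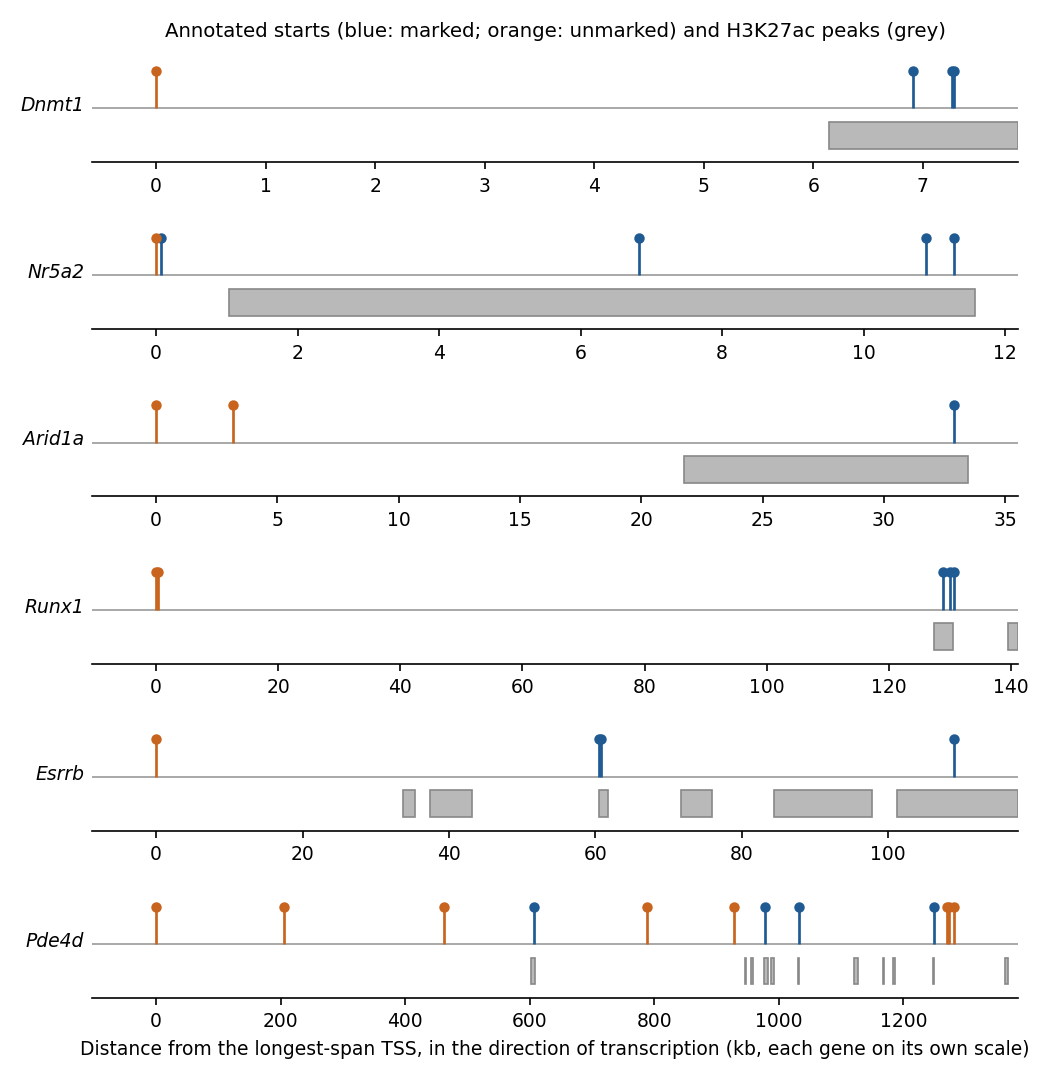
Annotated TSS (vertical lines, blue where marked and orange where not) and control H3K27ac peaks (grey boxes) of 6 members by distance in kb from the longest-span TSS, in the direction of transcription, each on its own scale. Dnmt1 and Nr5a2 show 1 wide peak over several starts, Runx1 a marked group of starts more than 128 kb from the unmarked pair, and Pde4d 4 marked starts among 12.

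Of 49 regulators of pluripotency, 6 had several TSS and an unmarked longest-span TSS, and 2 of these were members (33.3%, 95% interval 9.68 to 70.0, against 7.29% of all such genes). Esrrb was unmarked at Esrrb-204 and marked 60527 and 60766 bp downstream in a peak of 1183 bp (chr12:86421614-86422796), and 109000 bp downstream in a peak of 63012 bp. The CpG ratio was 0.302 at the unmarked start and 0.604, 0.652 and 0.428 at the marked starts in that order. The transcripts coded for 438 residues from the unmarked and for 378, 433 and 433 from the marked starts. Nr5a2, a nuclear receptor that acts on Pou5f1, was marked at 4 starts from 68 to 11275 bp downstream of its longest-span TSS, all in or beside a peak of 10536 bp (chr1:136948880-136959415). The first of these lay 965 bp from the peak and the unmarked start 1033 bp from it, both in CpG-poor sequence (0.0935 and 0.0925), while 3 starts inside the peak had ratios from 0.497 to 0.555.

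Signalling genes gave 4 members among 22 with several TSS and an unmarked longest-span TSS (18.2%, 95% interval 7.31 to 38.5), and the lower end of this interval lies at the background of 7.29%. Hif1a was marked 6529 bp downstream in intron 1, in a peak of 2786 bp (chr12:73906909-73909694), with a CpG ratio of 0.312 at the unmarked and 0.874 at the marked start. The marked transcript used another start codon and coded for 836 residues against 810. Its relative Hif3a was marked 5748 bp downstream (0.346 and 0.438), also with another start codon. Prkar1a, a regulatory subunit of the cAMP-dependent kinase, was marked 1170 bp downstream, 279 bp from a peak. Pde4d, which breaks down cAMP from many promoters, had 12 TSS over 1281135 bp and was marked at 4 of them, 606477, 978603, 1031979 and 1248929 bp from the longest-span TSS, in 4 separate peaks of 1564 to 6720 bp. The marked transcripts coded for 753, 700, 678 and 584 residues in that order, and the high-CpG start among the 4 was the last (0.717).

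Of 92 genes known for alternative promoters, 42 had several TSS and an unmarked longest-span TSS, and 8 of these were members (19.0%, 95% interval 9.98 to 33.3, against 7.29% of all such genes). Runx1 was unmarked at its distal start, Runx1-201, and marked at 3 starts from 128821 to 130654 bp downstream, of which 2 lay in a peak of 3184 bp (chr16:92695556-92698739) and the farthest 61 bp beside it. The CpG ratio was 0.335 at the distal start and 0.745 at the nearest marked one, and the coding length went from 465 to 387 residues with another start codon. Rarb, a retinoic acid receptor, was marked 243329 bp downstream (0.0771 unmarked, 0.542 marked). Acaca, the rate-limiting enzyme of fatty acid synthesis, was marked 6709 bp downstream (0.153 and 0.767). Tpm3, a tropomyosin, was marked 6889 bp downstream in a peak of 11833 bp, with 248 residues against 285. Nfic, a member of the nuclear factor I family, had 3 separate groups of marked starts. Sox6 was marked 7697 bp downstream, 765 bp from a peak.

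Of these 8, Mest and Snrpn are imprinted, and both were marked at a downstream start. Mest was marked 14503 bp downstream, in a peak of 3426 bp (chr6:30737576-30741001), with CpG ratios of 0.166 and 0.738 and a new start codon (335 residues against 112). It had 4 unmarked TSS in all, of which those between the outermost and the marked start lay 8421, 9907 and 9959 bp downstream. Snrpn was marked 135108 bp downstream in a peak of 3029 bp (0.114 and 0.453), with 240 residues from either start. The marked start of Snrpn lay 62 bp from the longest-span TSS of Snurf on the same strand, so the peak cannot be given to one of these genes alone. The peak list does not tell the parental alleles apart.

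Of 72 genes of the cytoskeleton, 59 were marked at the longest-span TSS and 12 had several TSS and an unmarked longest-span TSS. Of these 12, 7 were members (58.3%, 95% interval 32.0 to 80.7, against 7.29% of all such genes). Plec, which links filaments of the cytoskeleton and is known for many first exons, had 15 TSS, of which 9 were marked, in or beside 2 peaks of 4382 and 4519 bp that begin more than 22 kb from the unmarked longest-span TSS. All marked windows of Plec were low-CpG or intermediate, while 3 of its unmarked windows were high-CpG. Macf1, a linker of microtubules and actin, was marked at 3 of 12 TSS, the nearest in the widest peak of any member, 64334 bp, and its marked transcript there coded for 1837 residues against 7355. Ank1 was marked 83393 bp downstream in a peak of 443 bp, Epb41l3 81127 bp downstream in one of 825 bp and Palld 142580 bp downstream in one of 611 bp. Kalrn was marked 360889 bp downstream in intron 34. Add3 was marked at 7 of its 15 TSS, from 1131 to 3554 bp downstream.

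Adhesion and synaptic genes gave 6 members of 47 with several TSS and an unmarked longest-span TSS (12.8%, 95% interval 5.98 to 25.2, which holds the background of 7.29%), all with starts more than 38 kb apart. The axon guidance receptor Robo1 was marked 99449 bp downstream (0.256 and 0.646), the tight junction protein gene Tjp1 156457 bp (0.875 and 0.898), Tenm3 118651 bp (0.503 and 0.923) and Tenm4 38908 bp. The nearest marked start of Auts2 lay 92463 bp upstream (0.156 and 0.601), and Auts2 was also marked 910673 bp downstream. Of 64 genes for RNA-binding proteins, 9 had several TSS and an unmarked longest-span TSS, and 3 of these were members (33.3%, 95% interval 12.1 to 64.6, against 7.29% of all such genes). They were Mbnl1, a splicing regulator (28100 bp, 0.226 and 0.856), Elavl2 (27915 bp) and Rbm47 (21194 bp, 0.189 and 0.531).

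**Figure D4:**
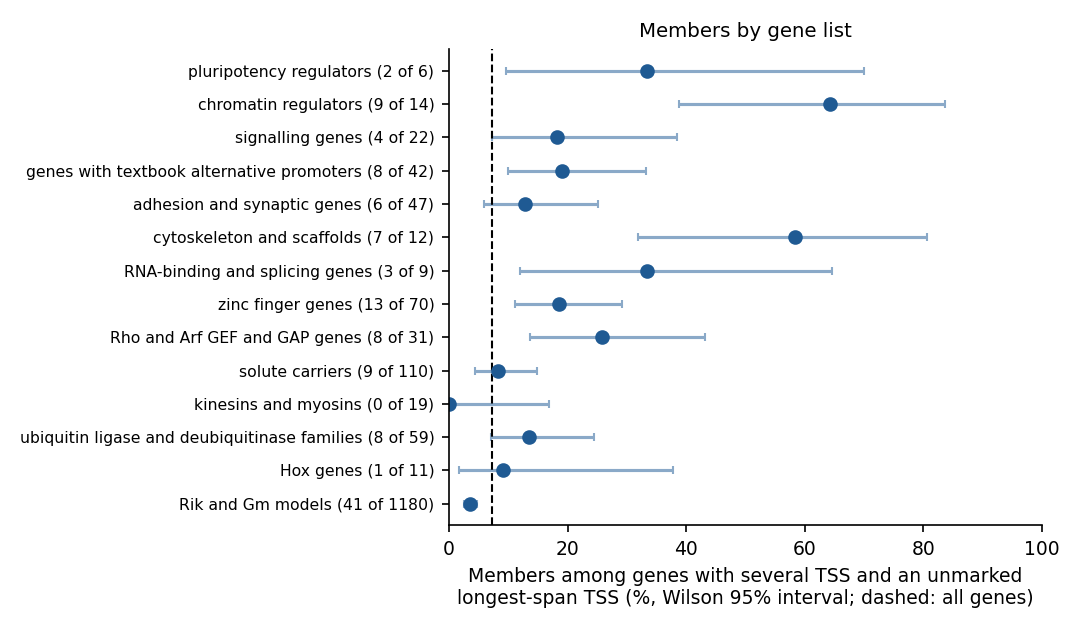
Percent of genes with several TSS and an unmarked longest-span TSS that were members, for 14 lists of genes (points, with Wilson 95% intervals and the counts beside the names). The dashed line is the value of 7.29% over all such genes, and the points run from 0 of 19 kinesins and myosins to 9 of 14 chromatin regulators.

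Groups defined by the pattern of their symbols varied as well. Zinc finger genes gave 13 members of 70 (18.6%, 95% interval 11.2 to 29.2, against 7.29% of all such genes), with a higher CpG ratio at the marked start in Zfp37, Zfp119b, Zfp407, Zfp445, Zfp607a, Zfp708, Zfp759, Zfp800, Zscan25 and Zbtb12, and a lower one in Zfp536, Zfp936 and Zbtb7c. Zfp759 went from 124 to 721 residues and Zfp37 from 100 to 594, both with another start codon. Regulators of small GTPases gave 8 of 31 (25.8%, 13.7 to 43.2), and the CpG ratio was higher at the marked start in 7 of these 8. It was 0.206 unmarked and 0.728 marked in Rapgef5, 0.286 and 0.299 in Arhgef10l, and 0.503 and 0.387 in Arhgef4. Ubiquitin ligases and deubiquitinases gave 8 of 59 (13.6%, 7.03 to 24.5, which also holds that background), and the CpG ratio was higher at the marked start in 7 of these 8. It went from 0.183 to 0.698 in Rnf11 and from 0.334 to 0.438 in Rnf123, and in Trim2 it was 0.527 at the unmarked and 0.181 at the marked start. Solute carriers gave 9 of 110 (8.18%, 4.36 to 14.8), a share that holds the background of 7.29% in its interval. Kinesins and myosins gave 0 of 19, which allows a share of up to 15.8% (3 of 19), or 16.8% as the upper end of the Wilson interval. Of 39 Hox genes, 11 had several TSS and an unmarked longest-span TSS, and of these only Hoxc4 was a member (9.09%, 1.62 to 37.7, which holds the background), marked 15461 bp downstream. Predicted and RIKEN gene models gave 41 of 1180 (3.47%).

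The peaks over members were slightly narrower than those over other promoters. The members' marked windows were overlapped by 538 peaks, of a median width of 1883 bp (95% interval 1819 to 1995), against 2041 bp (1999 to 2097) for the 9458 autosomal peaks over longest-span windows and 2035 bp (1993 to 2081) for the 12596 at neither. Of the 538 peaks, 464 touched no longest-span window of any gene. The nearest marked start lay in or beside a peak under 1 kb in 96 members and one of at least 10 kb in 34. After Macf1, the widest peaks over nearest marked starts were those of AC163629.2 (60927 bp), a lincRNA gene with 20 TSS, the predicted gene Gm28040 (36209 bp), Rbpj (31668 bp), the DNA-binding factor of Notch signalling, Tnrc18 (27981 bp) and the kinase gene Sgk1 (27606 bp). Smyd1, Dlc1, Bicral and Gsta4 followed, with 18318 to 26100 bp. Marked starts in several separate groups were most numerous in AC163629.2, Dab2ip, Etl4, Pde4d and Schip1, with 4 each, and Foxn3, Hk1, Macf1, Nfic and Nr5a2 were among the 10 members with 3.

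The 28 lincRNA members had a median distance of 14092 bp (95% interval 9064 to 27229) between the starts, against 11902 bp (9472 to 14622) in coding members. Their CpG ratio had a median of 0.273 (0.223 to 0.413) at the marked and 0.197 (0.145 to 0.283) at the unmarked start, and was higher at the marked start in 21 of 28. Those in the widest peaks were AC163629.2, 4930425L21Rik (16102 bp), Gm46332 (12701 bp), D630033O11Rik (11688 bp) and BC028471 (8424 bp). Their marked windows had ratios from 0.165 to 0.323.

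Some marked starts were shared with a neighbour. In 53 members (10.8%, 95% interval 8.38 to 13.9), every marked window overlapped the longest-span window of another gene, which was on the opposite strand in 47. The share of such members was 5.93% with transcripts of support level 1 or 2 only. It was 16.3% when the longest spliced isoform stood for the gene. Usp37, a deubiquitinase, had its marked start 252 bp from that of Cnot9 on the other strand, and Carf 356 bp from that of Wdr12. For such pairs the H3K27ac signal of the start of the member and that of its neighbour cannot be told apart. Leaving these members out left 436.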

How the data were processed

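The series comprises H3K27ac ChIP-seq of 6 mESC samples (2 control, 2 NVP-2, 2 ActD). Per the labels and the study's methods, the authors trimmed reads with Cutadapt, aligned them with BWA to mm10 and a human genome for the spike-in, removed duplicates with Picard 2.9.1, filtered with SAMtools 1.4, called peaks with LanceOtron, merged close peaks and removed weak ones and those far from ATAC-seq summits. These filters decide which starts count as unmarked. The deposited control list holds 3 columns (chromosome, start, end), pooled over both replicates, so it allows no comparison of replicates.

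Transcript starts came from GENCODE release M21 (GRCm38), sequence and curated starts from RefSeq on the same assembly. Starts were converted to positions counted from 1, and a TSS was marked if a peak overlapped its window of 1 kb on each side by at least 1 bp. Ties for the longest span were broken by transcript identifier. The code was checked on simulated peaks placed on well-separated starts, which does not test close starts or windows shared with a neighbour. Python 3.11.15, numpy 2.4.6, pandas 2.3.3 and scipy 1.17.1 were used. Members and gene lists were chosen with earlier results of these data known.

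Named genes are the members on the lists or matched by symbol pattern, the 10 largest and smallest distances, the 10 with the most separate marked starts, the 10 in the widest peaks, the 5 lincRNA genes in the widest peaks, the 10 genes nearest to the limit on either side, and the 10 largest gains and losses in CpG ratio. A gene that this rule names is not reported here.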

Additional observations from a re-analysis of the deposited data

How the results depend on the processing

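A set of 7 quantities was recomputed under alternatives, and 53 of 72 values stayed within the interval of the reported value (for the count of members, within 1.5 times). None changed sign. Requiring the TSS itself inside a peak gave 777 members, 10.5% of the unmarked genes with several TSS, 91.6% of them marked downstream, at a median distance of 3591 bp, with a median CpG ratio difference of 0.0446 and a new start codon in 41.0%, and held 422 of the 489 members. A window of 2 kb gave a median distance of 15076 bp and a CpG ratio difference of 0.168. Peaks at least 1 kb wide gave a share of 5.89% and a distance of 14807 bp. The longest spliced isoform gave 48.2% downstream, a minority against the reported 88.1%, and 16.3% with shared windows. Of its 502 members, 276 were among the 489. The GENCODE basic tag gave a share of 6.22%, with 95.2% downstream. Support level 1 or 2 gave 270 members, a share of 8.83% and 5.93% with shared windows, and held only 237 of the 489 members (48.5%). Leaving out transcripts tagged as incomplete at the 5′ end, an alternative chosen after seeing the data, gave 91.2% downstream. A window of 250 bp on each side gave a CpG ratio difference of 0.292. The cause of these changes was not tested. No paired analysis was possible because the peak list used here pools both control replicates, and so no replicate could be left out.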
